A study of Rattus norvegicus with 12 samples.

Results

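The CCN genes encode small secreted proteins of the extracellular matrix. The 5 family members Ccn1 (older name Cyr61), Ccn2 (Ctgf), Ccn3 (Nov), Ccn4 (Wisp1) and Ccn5 (Wisp2) were taken by gene symbol from the array's gene annotation, each with 1 probe set that carries that symbol alone, and they are 5 of the 18166 genes tested. Ccn6 (Wisp3), the remaining member of the family, is given for context. Expression was measured in urinary bladder of female Sprague Dawley rats of about 3 months, with 6 samples taken 10 days after denervation and 6 from sham-operated rats. Denervation was by surgery and freezing of the ganglia on both sides (pelvicus, per the sample labels), and the sham rats had surgery without it, at a time before sampling that is not stated in the sources used here. All values are log2 expression values, so that a difference of 1 is a 2-fold change.

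CCN proteins are built from shared cysteine-rich modules and act outside the cell by binding integrins, low-density lipoprotein receptor-related proteins, heparan sulfate proteoglycans and growth factors. CCN1 and CCN2 are known as rapidly induced products of growth factor, mechanical and transforming growth factor beta signals, and the coactivators YAP and TAZ drive both through TEAD transcription factors. CCN3 often opposes CCN2 in cultured cells. CCN4 and CCN5 were first described as genes induced by WNT1 in mouse mammary cells, and CCN5 differs from the others in that it lacks the carboxy-terminal cystine knot module.

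Upstream sequences of Ccn2 and Ccn1 are shown because both genes are textbook TEAD targets, and the lists of YAP and TEAD genes described further on bear on them. The RefSeq promoter table of build GRCr8 matched 3 of the 6 family genes by symbol (Ccn1, Ccn2 and Ccn6). The 250 bases before the start of each gene were searched on both strands for GGAATG, the core of the TEAD motif, whose reverse complement is CATTCC. Capitals mark each match. The Ccn2 stretch lies at chr1:22624615-22624864 and the Ccn1 stretch at chr2:237225690-237225939, both on the minus strand.
Ccn2: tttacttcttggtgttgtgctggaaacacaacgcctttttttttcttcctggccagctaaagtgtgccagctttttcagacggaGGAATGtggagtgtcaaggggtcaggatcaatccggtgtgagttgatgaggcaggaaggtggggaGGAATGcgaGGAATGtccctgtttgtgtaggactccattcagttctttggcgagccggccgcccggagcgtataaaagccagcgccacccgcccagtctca
Ccn1: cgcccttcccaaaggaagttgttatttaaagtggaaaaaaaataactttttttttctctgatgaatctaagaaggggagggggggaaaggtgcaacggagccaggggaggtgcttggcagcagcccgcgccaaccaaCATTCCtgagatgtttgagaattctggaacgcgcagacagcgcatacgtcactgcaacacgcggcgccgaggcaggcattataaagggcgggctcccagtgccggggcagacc
Ccn2 held 3 matches, which begin at -166, -101 and -92 relative to the start of the gene, and Ccn1 held 1, at -113. Of 33469 promoters, 12.1% held at least 1 match in the same 250 bases and 27 (0.0807%) held at least 3. The letters TATAAA, searched on the gene's own strand, stood at -31 in Ccn2 and at -34 in Ccn1, and 8.06% of promoters held them. Ccn1 also held TGACGT, a core of the cyclic AMP response element, on the opposite strand at -68 (6.95% of promoters, both strands) and CAGACA, a core of the SMAD motif, at -80 (17.2%, both strands). AP-1 sites (TGACTCA, both strands, 4.05% of promoters) and CArG boxes (501 promoters) were not found in these stretches of Ccn2 and Ccn1, and the Ccn6 stretch held none of the motifs searched. A match is a description of the letters only.

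Array medians lay between 5.82 and 5.90, and 5216 of the 18166 genes (28.7%) passed an adjusted p of 0.05 in limma, 2153 higher (11.9%) and 3063 lower (16.9%) in denervated bladders. "Rose", "fell" and "called" refer to that threshold. The array of denervated replicate 2 lay between the groups, at -5.84 on a first principal component that carried 58.0% of the variance, where the rest of its group ranged from 25.9 to 42.5 and sham arrays from -30.2 to -22.5. Values of the family are therefore given with and without it. The labels do not state that the arrays are of different rats, and p-values thus reflect the spread between these samples, which may be technical.

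Of the 5 CCN genes 4 rose in the denervated bladder and 0 fell, against a background of 11.9% of all genes higher. Ccn4, Ccn5 and Ccn2 rose by 5.25-fold, 5.23-fold and 4.90-fold, Ccn3 rose by 2.68-fold, and Ccn1 stood 2.32-fold higher without passing the threshold. A called rise of at least 2-fold was reached by 4 of the 5 and by 2.90% of all genes, and one of at least 4-fold by 3 of the 5 and by 0.506% of all genes. Without denervated replicate 2, 5 of 5 members were called higher and 0 lower, against 14.4% of all genes higher and 20.2% lower. As the samples are whole tissue, more cells of a type and more RNA per cell cannot be told apart.

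Ccn2, connective tissue growth factor, is a matrix-associated protein that is widely used as a marker of fibrosis. It stood at 9.37, 7.70, 10.38, 9.72, 10.67 and 10.17 in denervated replicates 1 to 6, against 7.92, 7.06, 7.54, 7.52, 6.84 and 7.38 in sham replicates 1 to 6. Denervated replicate 2 lay within the range of the sham arrays, and the other 5 denervated arrays lay at least 1.45 above the highest sham array. The mean was 9.67 ± 1.07 in denervated and 7.38 ± 0.38 in sham bladders (SD, n = 6 each), a rise of 2.29 ± 0.41 (SE) with a limma adjusted p of 0.00123, the rise ranked 61 among all 18166 genes. Without denervated replicate 2 the rise was 2.69, or 6.43-fold (limma adjusted p = 5.75e-06).

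Ccn1, an angiogenic and adhesive matrix protein whose gene belongs to the immediate early genes, stood at 9.48, 7.61, 10.91, 9.50, 10.59 and 9.89 in the denervated arrays, against 9.30, 8.30, 8.76, 8.83, 7.11 and 8.38 in the sham arrays. The groups overlapped, since denervated replicate 2 lay below all but 1 of the sham arrays and sham replicate 1 reached within 0.18 of the lowest of the other 5 denervated arrays. The means were 9.66 ± 1.16 in denervated and 8.45 ± 0.75 in sham bladders (SD, n = 6 each). The difference of 1.22 ± 0.49 (SE), with an unadjusted 95% interval from 0.16 to 2.28, was not called (limma adjusted p = 0.0816). Leaving out denervated replicate 2 brought it to 1.63, or 3.09-fold (limma adjusted p = 0.00417).

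Ccn3, which restrains proliferation of vascular smooth muscle cells in culture, stood at 9.62, 7.60, 10.59, 9.57, 10.83 and 9.38 in the denervated arrays, against 8.00, 8.21, 8.18, 8.21, 8.15 and 8.30 in the sham arrays. The sham arrays were nearly alike, 5 denervated arrays lay at least 1.08 above the highest of them, and denervated replicate 2 lay below the lowest. The means of 9.60 ± 1.14 in denervated and 8.18 ± 0.10 in sham bladders (SD, n = 6 each) differed by 1.42 ± 0.41 (SE, limma adjusted p = 0.0187). Without denervated replicate 2 the rise was 1.82, or 3.54-fold (limma adjusted p = 7.95e-05). A rank-sum test did not call it, with denervated replicate 2 below every sham array (exact test, adjusted p = 0.158).

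Ccn4, a Wnt-inducible matrix protein that promotes proliferation and survival of several mesenchymal cell types, stood at 9.05, 7.60, 10.11, 9.35, 9.71 and 9.00 in the denervated arrays, against 6.70, 6.45, 6.83, 6.79, 6.93 and 6.78 in the sham arrays. The groups did not overlap, and denervated replicate 2 came nearest to the sham range. The means were 9.14 ± 0.86 in denervated and 6.75 ± 0.17 in sham bladders (SD, n = 6 each), and the rise was 2.39 ± 0.31 (SE, limma adjusted p = 0.000228), ranked 52 among all genes. With that array left out it was 2.70, or 6.49-fold (limma adjusted p = 9.33e-07).

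Ccn5, which limits proliferation and motility of rat and human vascular smooth muscle cells in culture, stood at 9.28, 7.75, 10.15, 9.67, 10.38 and 9.45 in the denervated arrays, against 7.18, 7.15, 6.99, 6.79, 7.08 and 7.16 in the sham arrays. Here too the groups did not overlap, which held for Ccn4 and Ccn5 among the 5 members and in this direction for 5.76% of all genes. The means were 9.45 ± 0.93 in denervated and 7.06 ± 0.15 in sham bladders (SD, n = 6 each), a rise of 2.39 ± 0.34 (SE, limma adjusted p = 0.000341), ranked 53. It was 2.73, or 6.62-fold, over the arrays other than denervated replicate 2 (limma adjusted p = 8.40e-07).

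Ccn6 ranged from 5.13 to 5.55 in the denervated arrays and from 5.21 to 5.58 in the sham arrays, below the array medians, where signal over background is unknown. Its difference of -0.03 ± 0.08 (SE) was not called (limma adjusted p = 0.814), and its unadjusted 95% interval was -0.21 to 0.15.

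**Figure D1:**
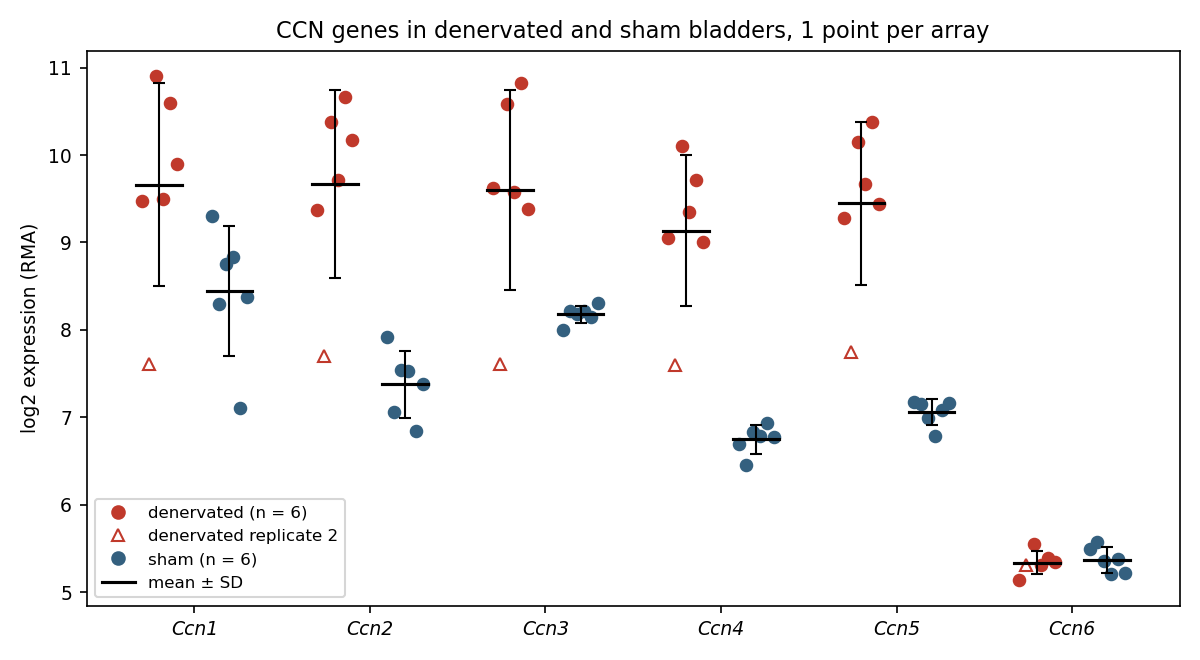
Log2 expression (vertical axis) of the 6 CCN genes on each array, denervated on the left and sham on the right of each pair, with the mean ± SD in black. For Ccn2 to Ccn5 the 5 filled denervated points stand at least 1.08 above the highest sham point, and the open triangle of denervated replicate 2 lies between 7.60 and 7.75 for Ccn1 to Ccn5.

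**Figure D2:**
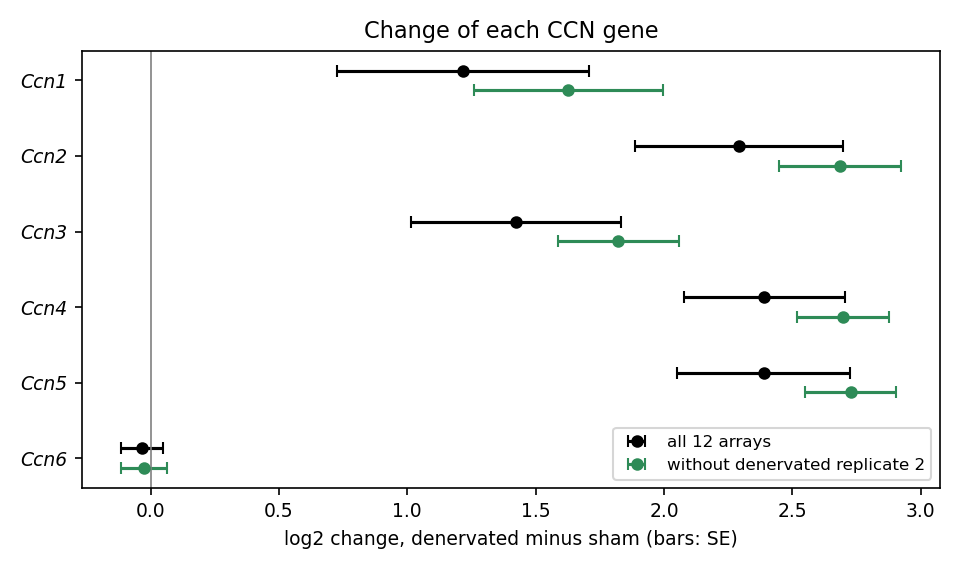
Log2 change, denervated minus sham (horizontal axis), of each CCN gene with its SE, from all 12 arrays in black and without denervated replicate 2 in green. The changes of Ccn1 to Ccn5 ran from 1.22 to 2.39 with all arrays and from 1.63 to 2.73 without that array, and Ccn6 stayed near 0.

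Whether the members changed by unequal amounts was tested on the difference of log2 values of 2 genes within each array, which does not set the level of a probe set against that of another. All 10 pairs were compared with a two-sided exact permutation test over the 924 ways to split the arrays, whose smallest possible p is 0.00216, and p-values were adjusted over the 10 pairs. The change differed for 6 of the 10 pairs, and in each of them Ccn1 or Ccn3 had the smaller change. Ccn3 changed by less than Ccn4 (difference of the changes -0.97 ± 0.17, SE, exact permutation adjusted p = 0.0108) and by less than Ccn5 (-0.96 ± 0.14, exact permutation adjusted p = 0.0108). Ccn2 changed by more than Ccn3 (0.87 ± 0.24, exact permutation adjusted p = 0.0216).

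The difference between denervated and sham bladders was smaller for Ccn1 than for Ccn2 (-1.07 ± 0.21, SE, exact permutation adjusted p = 0.0144), the other member known as a YAP target. It was also smaller for Ccn1 than for Ccn4 (-1.17 ± 0.37) and Ccn5 (-1.17 ± 0.35), both with an exact permutation adjusted p of 0.0216. No difference was called between the changes of Ccn4 and Ccn5 (95% interval -0.31 to 0.32), Ccn2 and Ccn4 (-0.65 to 0.45), Ccn2 and Ccn5 (-0.56 to 0.36) or Ccn1 and Ccn3 (-0.96 to 0.55). The last of these intervals leaves room for a nearly 2-fold difference between the changes of Ccn1 and Ccn3. The same 6 pairs were past the threshold without denervated replicate 2.

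**Figure D3:**
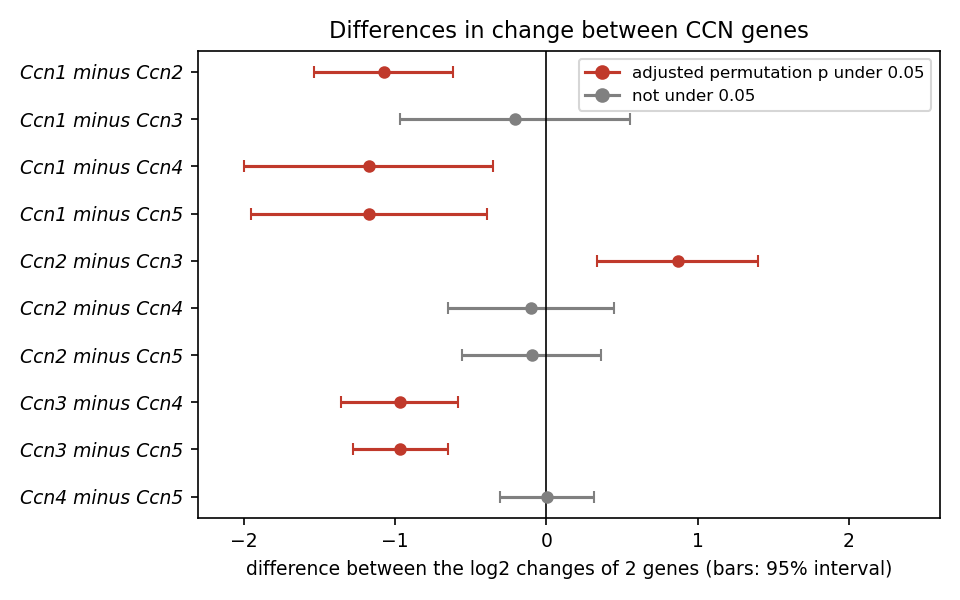
Difference between the log2 changes of 2 CCN genes (horizontal axis) for the 10 pairs, with 95% intervals from the pooled SD of the within-array differences. Red marks the 6 pairs past an adjusted exact permutation p of 0.05, which set Ccn1 and Ccn3 below Ccn2, Ccn4 and Ccn5, and grey marks the others.

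Replicates of the denervated group differed widely in all 5 genes. Their SDs of 0.86 to 1.16 compare with a median SD of 0.18 over all genes in that group. Denervated replicate 2 was the lowest of its group for 5 of 5 members, and replicates 3 and 5 were the 2 highest for 5 of 5. Set against the sham means, denervated replicate 2 stood at -0.83 for Ccn1, -0.57 for Ccn3 and 0.32 for Ccn2, but at 0.85 for Ccn4 and 0.69 for Ccn5.

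In the sham bladders Ccn1 and Ccn2 varied together, and the other pairs of members did not. Ccn1 and Ccn2 varied among sham arrays (SD 0.75 and 0.38, above 99.9% and 97.3% of all genes), whereas Ccn3, Ccn4 and Ccn5 had SDs of 0.10 to 0.17, beside a median of 0.12 over all genes. Sham replicate 5 was the lowest and sham replicate 1 the highest for both Ccn1 and Ccn2. Across the 6 sham arrays Pearson's r between Ccn1 and Ccn2 was 0.94, and between every other pair of members it lay between -0.43 and -0.01. Over the deviations from the group means of all 12 arrays it was 0.94 for Ccn1 and Ccn2 (0.88 over the 11 arrays without denervated replicate 2) and 0.96 for Ccn3 and Ccn5 (0.86). Within the 6 denervated arrays r was 0.93 to 0.98 for the 10 pairs. Over the deviations of all 12 arrays r was 0.77 to 0.96 for the 10 pairs, and over the 11 arrays without denervated replicate 2 it was 0.40 to 0.88. Both of these ranges include the sham arrays. The correlation within the rest of the denervated group alone was not computed. These correlations are descriptions over few arrays, and the points of every pair share those arrays.

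**Figure D4:**
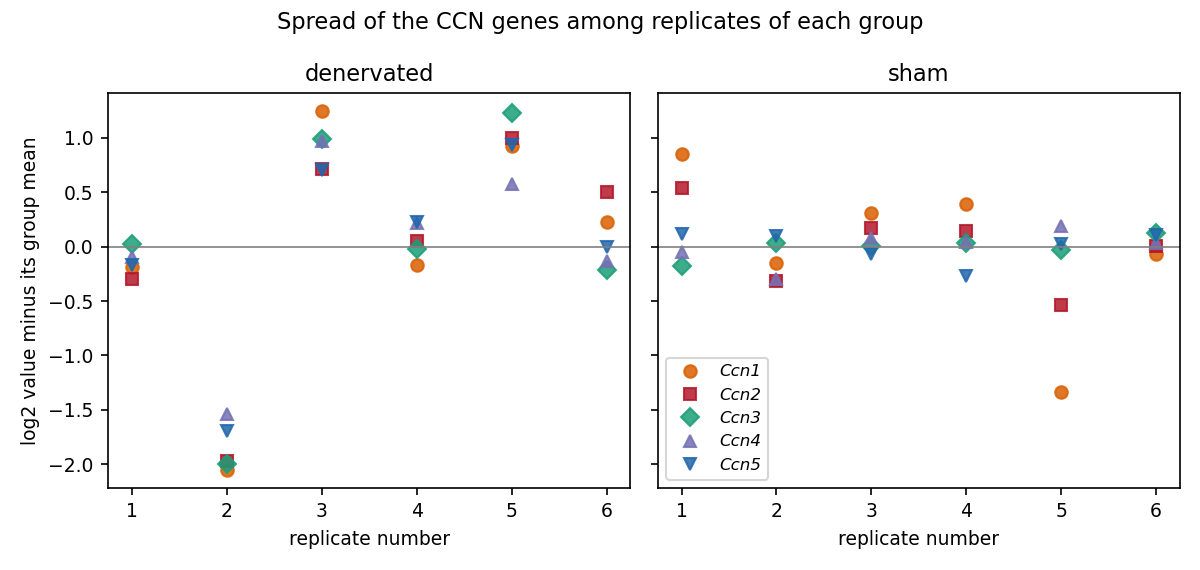
Log2 value minus its group mean (vertical axis) for the 5 CCN genes on each denervated array (left) and sham array (right). In the denervated group the 5 genes are all lowest in replicate 2 and highest in replicates 3 and 5, and in the sham group Ccn1 and Ccn2 are lowest in replicate 5 and highest in replicate 1 while the other 3 genes stay nearer to 0.

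The genes most like each member were ranked among all genes by Pearson's r of the deviations from the group means over the 12 arrays. For Ccn1 they were the probe set of the microRNA gene Mir22 (r = 0.96), Ccn2 (0.94), Dusp1 (0.93), an immediate early gene of a phosphatase that switches off MAP kinases, and Polq (0.92), a DNA polymerase of end joining. Across the 6 sham arrays alone r with Ccn1 was 0.94 for Mir22 and 0.96 for Dusp1. Those arrays were among the 12 by which the genes were chosen, so this is no separate observation. Like Ccn1, Mir22 and Dusp1 were not called between the groups (0.20 and 0.41), whereas Ccn2 (2.29) and Polq (0.41) rose. Without denervated replicate 2 Dusp1 was called higher (0.65, limma adjusted p = 0.0271), as was Ccn1, but Mir22 was not (limma adjusted p = 0.0944). For Ccn2 the nearest genes were Rin3 (0.96), Plk2 (0.95), a stress-responsive kinase, Bcat1 (0.95), which transaminates branched-chain amino acids, and Orai2 (0.95), a subunit of store-operated calcium channels.

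For Ccn3 the nearest genes were Ckap4 (0.97), an anchor protein of the rough endoplasmic reticulum, Slc66a3 (0.97), Pmepa1 (0.97), a gene induced by transforming growth factor beta that limits its signal, and Ccn5 (0.96). For Ccn4 they were Lrrc15 (0.98), a membrane protein of matrix-producing fibroblasts, Aldh18a1 (0.97), which makes the precursor of proline, Or11h4c (0.97), an olfactory receptor gene with mean values of 2.92 and 2.73 in denervated and sham arrays, far below the array medians, and Nans (0.97), which makes sialic acid. For Ccn5 they were Basp1 (0.97), Ccn3 (0.96), Chsy1 (0.96), a chondroitin sulfate synthase, and Colgalt1 (0.95), which adds galactose to collagen. Without denervated replicate 2 these r lay between 0.78 and 0.95, and Lrrc15 kept 0.95 with Ccn4. In the sham arrays alone r was 0.59 to 0.89 for the genes nearest to Ccn2 and 0.74 to 0.98 for those nearest to Ccn4. It was -0.21 to 0.57 for those nearest to Ccn3 and -0.21 to 0.59 for those nearest to Ccn5.

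Of 13 measured receptors and binding partners of CCN proteins, 7 rose (53.8%), 2 fell and 4 were not called. Over all genes 11.9% rose and 16.9% fell. The median change was 0.29, against -0.04 over all genes. Itgb2 (2.21 ± 0.21) and Itgam (1.71 ± 0.20), the subunits of the leukocyte integrin that binds CCN1 and CCN2 on monocytes and macrophages, rose most. Itgb2 stood between 8.16 and 9.73 in the denervated arrays and between 6.55 and 6.87 in the sham arrays, so the groups did not overlap, with the lowest denervated value again in replicate 2 (8.16). Macrophage markers moved with it: 9 of 10 were called higher, and their mean level per array ran from 9.18 to 10.11 in denervated and from 8.07 to 8.31 in sham bladders, with 9.18 in denervated replicate 2. Their defining gene Cd68 averaged 9.90 ± 0.49 in denervated and 7.70 ± 0.18 in sham bladders (SD, n = 6 each). The part of these cells in the integrin values was not tested.

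Integrin subunits of muscle and connective tissue cells rose by less. Itga5, of the fibronectin receptor, rose by 0.74 ± 0.14, Itgb5, whose product pairs with the alpha v subunit, by 0.61 ± 0.11, and Itgb1, the common beta 1 subunit, by 0.29 ± 0.08. Lrp1, an endocytic receptor that takes up CCN2, rose by 0.51 ± 0.07 and Igf2r by 0.34 ± 0.08. Sdc4, a heparan sulfate proteoglycan that serves as coreceptor for CCN1, fell by 0.47, and Fgfr2, a growth factor receptor reported to bind CCN2, fell by 0.50. Lrp6 (0.17), Notch1 (-0.12), Itga6 (-0.06) and Itga2b (0.03) were not called.

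Of 13 proteases and plasminogen activators that cut CCN proteins or start that cutting, 7 rose, 0 fell and 6 were not called. The share that rose was 53.8%, against 11.9% of all genes, and the median change was 0.64. Mmp9 (1.72 ± 0.22), a gelatinase, Mmp14 (0.95 ± 0.14), a membrane-bound matrix metalloproteinase, Mmp2 (0.91 ± 0.13), which Mmp14 activates, and Plat (0.89 ± 0.15), tissue plasminogen activator, led them. Mmp2 stood between 11.52 and 12.18 in the denervated arrays and between 10.81 and 11.23 in the sham arrays, without overlap.

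The Hippo pathway holds back YAP and TAZ through its kinases. Of 22 measured pathway genes and TEAD cofactors, 1 rose, 7 fell and 14 were not called, with a median change of -0.09. Over all genes 11.9% were higher and 16.9% lower. Yap1 (-0.08 ± 0.06, limma adjusted p = 0.350) and Wwtr1, the gene of TAZ (-0.07 ± 0.06, limma adjusted p = 0.461), were not called, and Tead1, a DNA-binding partner of both, fell by 0.22. Tead1 stood between 9.87 and 10.31 in the denervated arrays, with the highest value in replicate 2, and between 10.30 and 10.38 in the sham arrays. Wwc1 (-0.72 ± 0.13), Mob1b (-0.52 ± 0.07) and Ptpn14 (-0.40 ± 0.11), which all restrain YAP, fell, and the TEAD cofactor Vgll3 rose by 0.41 ± 0.12. The rest of the genes that fell were Tead2 (-0.38 ± 0.12), Tead3 (-0.32 ± 0.10) and Nf2 (-0.34 ± 0.07). The kinase genes Stk3 (-0.09), Stk4 (0.20) and Lats2 (-0.05) were not called, nor was Sav1 (0.03), and Lats1 was not measured. The activity of YAP and TAZ was not tested.

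Genes other than Ccn1 and Ccn2 that YAP is known to induce moved in both directions. Of 16 measured, 7 rose (43.8%, against 11.9% of all genes), 3 fell and 6 were not called, with a median change of 0.08. Ptpn14, Amotl2 and Lats2 are also counted in the Hippo list, and Tgfb2 also in the list of transforming growth factor beta genes. Axl, a receptor tyrosine kinase, rose by 0.85 ± 0.14, Ccdc80, a secreted matrix protein, by 0.79 ± 0.10 and Nuak2, a kinase of actomyosin regulation, by 0.72 ± 0.20, each by less than the 2.29 of Ccn2. Igfbp3, an insulin-like growth factor binding protein, fell by 1.49, and Ankrd1, a target used as a YAP readout beside Ccn1 and Ccn2, was not called (0.03 ± 0.13, limma adjusted p = 0.887). Its means of 6.07 in denervated and 6.03 in sham bladders lay close to the array medians.

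All 3 ligand genes of transforming growth factor beta, a known inducer of Ccn2, rose. Of 19 measured genes of that pathway and its targets, 8 rose (42.1%, against 11.9% of all genes), 3 fell and 8 were not called. The median change was 0.04, and without denervated replicate 2 there were 8 higher and 5 lower. Tgfb1 stood between 9.57 and 10.27 in the denervated arrays and between 8.76 and 8.99 in the sham arrays, a rise of 1.13 ± 0.10 in groups that did not overlap. Tgfb3 rose by 1.72 ± 0.29, Tgfb2 by 0.46 ± 0.10, Ltbp2, a microfibril protein, by 2.76 ± 0.43 and Pmepa1 by 0.82 ± 0.15. The 3 genes that fell were Tgfbr3 (-0.44), Smad6 (-0.37) and Tgfbi (-0.33). Denervated replicate 2 was the lowest of its group for Tgfb1, Tgfb3, Ltbp2 and Pmepa1 as well, with 8.23 for Tgfb3 against 8.95 to 10.32 in the other 5. The part of transforming growth factor beta in the values of Ccn2 was not tested.

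Ccn1 belongs to the immediate early genes. Of 22 others measured, 3 rose (13.6%, near the 11.9% of all genes), 1 fell and 18 were not called, with a median change of 0.19, and without denervated replicate 2 there were 5 higher and 0 lower. Egr2 rose by 1.19 ± 0.23, Klf2 by 0.49 ± 0.17 and Junb by 0.33 ± 0.09, and Fosb fell by 0.31 (limma adjusted p = 0.0432, and 0.0697 without denervated replicate 2). The mean level over the list was lowest in sham replicate 5 (7.57, against 7.72 to 7.96 in the other 5 sham arrays), the sham array in which Ccn1 and Ccn2 were lowest, but sham replicate 1, in which both were highest, had the next lowest list mean (7.72). In the denervated group the list mean was lowest in replicate 2 (7.60, with 7.74 to 8.22 on the remaining arrays).

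Ccn4 and Ccn5 are Wnt-inducible. Most of the other Wnt target genes measured were lower in these whole-tissue samples. Of 15 measured, 3 rose, 10 fell and 2 were not called, against 16.9% of all genes lower, with a median change of -0.39. Lgr5, a receptor for R-spondins, fell by 1.19, Tnfrsf19 by 0.74, Nkd2, an inhibitor of Wnt signalling that Wnt signalling itself induces, by 0.63 and Axin2, a feedback inhibitor and standard readout, by 0.29. Dkk3, a secreted protein related to Wnt antagonists, rose by 1.04 ± 0.17. The part of Wnt signalling in the values of Ccn4 and Ccn5 was not tested.

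**Figure D5:**
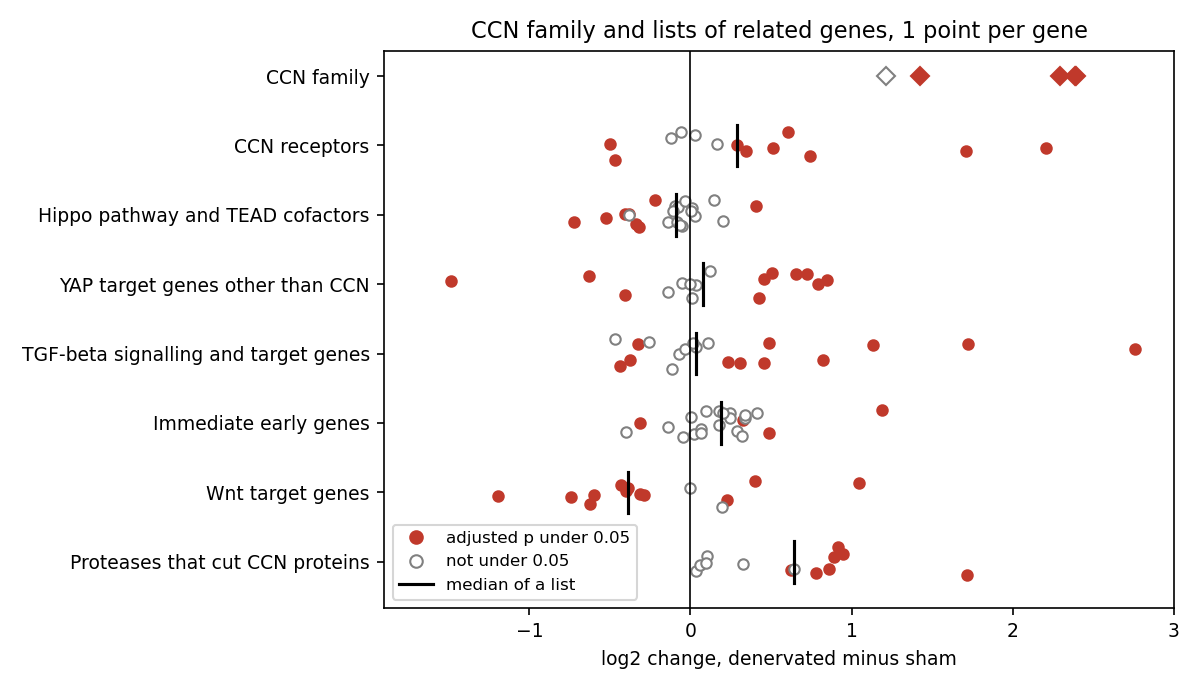
Log2 change, denervated minus sham (horizontal axis), of the 5 CCN genes (diamonds) and of each measured gene in 7 lists of related genes (circles), red where the limma adjusted p was under 0.05, with the median of each list as a black bar. The list medians run from -0.39 for Wnt target genes to 0.64 for proteases, and the 5 CCN genes stand between 1.22 and 2.39.

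The labels give the tissue as over 95 percent smooth muscle. Myh11, smooth muscle myosin heavy chain, was bright at 12.63 ± 0.27 in denervated and 13.14 ± 0.05 in sham bladders (SD, n = 6 each), and so was the urothelial marker Upk2, at 11.87 ± 0.11 in denervated and 12.63 ± 0.11 in sham bladders. The marker counts below compare with 11.9% of all genes called higher and 16.9% lower. Of the smooth muscle markers 5 of 8 measured were lower and 1 higher, with mean levels of 11.06 to 11.75 in denervated and 11.70 to 11.90 in sham arrays. Fibroblast markers, which belong to a main source of CCN proteins, were higher in 7 of 10, with mean levels of 10.84 to 11.65 in denervated arrays (10.84 in replicate 2) and 10.45 to 10.78 in sham arrays. Endothelial markers were higher in 5 of 8, with 8.14 to 8.53 in denervated and 7.83 to 7.94 in sham arrays, and lymphocyte markers in 5 of 9, with 6.05 to 6.55 in denervated and 5.83 to 5.90 in sham arrays. Urothelial markers were lower in 9 of 9, with 10.12 to 10.54 in denervated and 11.02 to 11.32 in sham arrays, and Schwann cell markers in 5 of 8, with 6.73 to 7.54 in denervated and 7.81 to 7.98 in sham arrays. S100b, which defines Schwann cells here, averaged 6.91 ± 0.13 in denervated and 7.75 ± 0.33 in sham bladders (SD, n = 6 each). The list means of denervated replicate 2 lay nearest to the sham range among the denervated arrays, or within it, for smooth muscle (11.75), fibroblast (10.84), endothelial (8.14), urothelial (10.54) and Schwann cell markers (7.54). Their part in the values of the CCN genes was not tested.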

How the data were processed

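The authors deposited log2 expression values of 36685 probe sets on 12 arrays, made by RMA in Affymetrix Expression Console 1.4.1.46 per the submitters' processing notes. The genome build of the array is not given in the sources used here. Of 18511 probe sets with 1 gene in the platform's table, 18394 matched a RefSeq gene identifier, and the brightest per symbol was kept (18166 genes). Denervated and sham arrays were compared on the deposited values by lmFit and eBayes of limma 3.58.1 (R 4.3.3), two-sided, at a Benjamini-Hochberg adjusted p of 0.05 over the 18166 genes, and the scripts were tested on simulated data. Member pairs were compared by exact permutation in Python 3.11.15, and their intervals use the pooled SD. Members and lists were chosen with earlier results of these data known. Genes were named by a fixed rule: all family members, up to 4 called genes of each list with the largest change, all called receptors, the 4 genes most like each member and a few pathway and marker genes. Others named are examples chosen after their values were seen. Pecam1 was not analysed here. The number of arrays limits the precision. Alternatives were other normalization, filters on dim genes, variance models, tests, probe set rules, a replicate block and leaving out each array.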

Additional observations from a re-analysis of the deposited data

Results flagged for a closer look

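In 126 groups of 6 arrays (63 named genes in each of the 2 groups), an array stood apart from the rest in 7 groups by a gap above Dixon's 95% critical value for the gap as a share of the group's range. Chance flags about 1 group in 20. None was a CCN gene: the largest gaps of Ccn1 to Ccn5 in the denervated group, each between replicate 2 and the next array, were 0.55 to 0.58 of the range. Denervated replicate 2 stood apart for Igfbp3 (11.84, against 10.19 to 10.75 in the other 5), Nkd2 (9.13, against 8.27 to 8.59), Rin3 (7.20, against 8.03 to 8.46) and Colgalt1 (8.32, against 9.12 to 9.53). Denervated replicate 6 stood apart for Igf2r (10.45, against 10.85 to 10.94). Sham replicate 2 stood apart for Lrrc15 (4.59, against 4.94 to 5.07) and Nans (8.24, against 8.36 to 8.44). Both genes had been named for their likeness to Ccn4 over these same arrays, so that Ccn4 too was lowest there is no separate observation.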

How the results depend on the processing

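Ccn2, Ccn4 and Ccn5 stayed called higher under all 11 other settings and without each of the 12 arrays, with adjusted p of at most 0.0245. Ccn1 was called with array weights (1.38, adjusted p = 0.0182) and, of the arrays left out in turn (0.95 to 1.63), only without denervated replicate 2. Ccn3 kept its change of 1.42 but lost its call in the exact rank-sum test (adjusted p = 0.158) and against a 1.2-fold change (adjusted p = 0.0892), and leaving out arrays gave 1.18 to 1.82, all called. Against a 1.2-fold change 756 genes were higher and 496 lower, as that test asks for more. The difference of Ccn6 changed sign between -0.075 and 0.0096 when arrays were left out, never called, and Ccn6 has no value among genes brighter than the median. The difference in change between Ccn4 and Ccn5 changed sign too (-0.0062 after a further quantile normalization, -0.075 to 0.075 without single arrays), as did that between Ccn2 and Ccn4 (-0.25 to 0.018), and neither was called. The number of pairs called was 6 in each of the 15 settings tried for them. Without denervated replicate 2 the immediate early genes called were 5 higher and 0 lower, and 5 genes of the transforming growth factor beta list were lower. Replicate numbers did not pair the arrays: same-numbered arrays correlated at -0.11 to 0.10, and with a replicate block 4 members were called higher, among 1984 genes higher and 2476 lower. With no detection calls, brightness alone limits what can be said of dim genes such as Ccn6.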
